A study of Mus musculus with 8 samples.

Results

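The comparison described here set 4 libraries of mice with a lysozyme-Cre deletion of either PARP gene against 4 libraries of floxed WT controls. The floxed line was an additive covariate. The fitted value, called the shared effect below, is an average over both lines. A difference in either line alone can therefore move it. All 8 of the 8 libraries entered the comparison, 4 CKO against 4 WT, and they were chosen by their genotype labels. The 4 groups, of 2 libraries each, were PARP1 WT (genotype PARP1 flox/flox), PARP1CKO (PARP1 flox/flox+lysozyme-Cre), PARP2 WT (PARP2 flox/flox) and PARP2CKO (PARP2 flox/flox+lysozyme-Cre). All mice were C57BL/6 and 2 months old. Their bone marrow cells were passed through a 40 µm strainer and expanded in M-CSF at 40 ng/mL over 3 days, and total RNA of these immature myeloid cells (IMCs) was sequenced with a stranded kit from 4 µg per library. The WT mice carried the floxed alleles without Cre, and no group carried Cre without a floxed PARP gene. An effect of the Cre allele and an effect common to the loss of PARP1 and of PARP2 therefore cannot be told apart in this comparison. The labels do not say whether the mice carried 1 or 2 copies of Cre.

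PARP1 and PARP2 are nuclear enzymes that sense DNA breaks and attach chains of ADP-ribose to themselves and to neighbouring proteins, and both act in DNA repair and in transcription. Lyz2 encodes lysozyme M, a secreted enzyme that cuts bacterial cell walls and that monocytes, macrophages and neutrophils make in large amounts. In the LyzM-Cre mouse the recombinase was inserted into Lyz2 itself, so the Cre allele brings recombination to myeloid cells and at the same time interrupts one of the genes measured here. Lyz1, the neighbouring lysozyme gene, is best known from Paneth cells of the gut.

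The libraries held between 37852450 and 61845125 counts, and 13197 of 24062 genes passed the filter on low counts. Itgam, which encodes CD11b, lay between 881 and 1035 CPM (counts scaled to a common library total) and Csf1r, the M-CSF receptor, between 1167 and 1273 CPM in all libraries. The 19 neutrophil markers in the table summed to between 3193 and 4255 CPM, so granule genes of the neutrophil lineage were present beside the monocyte and macrophage genes. Of the T and NK cell list, Cd3d, Cd3e and Cd3g, chains of the T cell receptor complex, had at most 6 counts per library. In the PARP1 line the list summed to 235.3 and 229.8 CPM in WT and to 203.6 and 169.1 CPM in CKO, below WT. In the PARP2 line it summed to 240.1 and 218.2 CPM in WT and to 261.3 and 248.4 CPM in CKO, above WT. Most of the sum came from Il7r, with a mean of 219 CPM. In RNA from whole cultures, fewer cells of a type and less RNA per cell cannot be told apart. The design names biological duplicates but not the animals, and p-values measure the spread between these samples.

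Lyz2 and Lyz1 lie side by side on chromosome 10 of GRCm38 (mm10), Lyz2 from 117277331 to 117282321 and Lyz1 from 117287797 to 117292868, both on the minus strand. Their promoter windows are shown because these neighbours had the smallest p-values of all genes tested and are related copies. The windows run from 250 bases before to 50 bases after the start of each gene (RefSeq, GRCm38.p6), 5′ to 3′ on the minus strand, at chr10:117282223-117282522 for Lyz2 and chr10:117292819-117293118 for Lyz1. Capitals mark the 46 bases of each window that the other gene does not share in their alignment, in which 81.9% of positions were identical.
Lyz2: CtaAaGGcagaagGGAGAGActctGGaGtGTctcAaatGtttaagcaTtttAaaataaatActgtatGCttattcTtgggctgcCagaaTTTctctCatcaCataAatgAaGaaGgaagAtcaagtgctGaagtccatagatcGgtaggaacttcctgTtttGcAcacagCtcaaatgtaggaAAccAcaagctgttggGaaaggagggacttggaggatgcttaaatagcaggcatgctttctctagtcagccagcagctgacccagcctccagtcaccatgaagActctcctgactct
Lyz1: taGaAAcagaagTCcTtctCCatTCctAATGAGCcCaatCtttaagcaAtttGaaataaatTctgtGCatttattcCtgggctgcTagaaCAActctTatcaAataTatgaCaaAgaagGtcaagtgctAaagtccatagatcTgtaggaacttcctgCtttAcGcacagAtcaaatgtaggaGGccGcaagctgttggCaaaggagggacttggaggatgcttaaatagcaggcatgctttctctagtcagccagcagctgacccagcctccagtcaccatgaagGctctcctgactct
The stretch around the start of transcription was alike in both genes. The transcripts were 92.0% identical over their alignment. Of the 1189 windows of 75 bases in the Lyz1 transcript, 74 (6.22%) also occurred without a mismatch in Lyz2, and 531 (44.7%) occurred there with at most 2 mismatches. A part of the Lyz1 counts may thus have come from Lyz2 transcripts, and both genes are given with that limit.

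Further promoters are shown for 2 groups of genes whose members lay mostly on the same side of WT in both lines. Kif23 encodes a kinesin of the dividing cell's midbody, and its window at chr9:61946750-61947049 on the minus strand has the CCAAT box (as ATTGG on the strand shown) and the cell cycle homology region TTTGAAA in capitals. Ctsd encodes the lysosomal protease cathepsin D, and its window at chr7:142387778-142388077 on the minus strand has the core of the lysosomal CLEAR element, TCACGTGA, in capitals.
Kif23: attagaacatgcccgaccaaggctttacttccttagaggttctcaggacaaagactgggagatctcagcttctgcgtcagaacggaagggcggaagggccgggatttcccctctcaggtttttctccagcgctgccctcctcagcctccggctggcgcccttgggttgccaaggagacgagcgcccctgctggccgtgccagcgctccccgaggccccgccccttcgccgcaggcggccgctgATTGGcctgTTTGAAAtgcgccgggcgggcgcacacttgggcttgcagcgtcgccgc
Ctsd: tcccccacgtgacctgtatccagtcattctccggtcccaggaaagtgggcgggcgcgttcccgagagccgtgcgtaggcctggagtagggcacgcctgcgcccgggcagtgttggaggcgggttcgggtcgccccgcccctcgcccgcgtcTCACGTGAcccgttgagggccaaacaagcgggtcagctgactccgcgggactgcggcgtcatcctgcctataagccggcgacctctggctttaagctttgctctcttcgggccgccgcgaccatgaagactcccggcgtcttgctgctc
A RefSeq promoter window of this kind was matched for 9800 of the 13197 genes tested, and motifs were searched on both strands, and those marked above do not overlap. CCAAT stood in 16 of 19 windows of the mitosis list (84.2%) against 42.9% of the windows of all genes tested. TTTGAAA stood in 5 of those 19 (26.3%) against 5.21%, namely in Bub1b, Ccnb2, Cdk1, Kif11 and Kif23. TCACGTGA stood in 4 of 17 windows of the lysosomal list (23.5%) against 2.17%, namely in Atp6v1a, Ctsa, Ctsd and Mcoln1. TGACGTCA, the cyclic AMP response element, stood in 3 of 26 windows of the immediate-early list (11.5%) against 3.57%. Other pairs of motif and list went both ways. TGACTCA, the AP-1 site, stood in 0 of 26 immediate-early and 0 of 19 mitosis windows against 4.61%. CCAAT stood in 6 of 17 lysosomal windows (35.3%). GAGGAAG, the PU.1 core, stood in 4 of 15 windows of the iron list (26.7%) against 16.6%. The letters describe these windows and were not linked to the values below by any test.

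Parp1 and Parp2 each differed most in the line in which they were deleted. Parp1 stood at 202 and 211 CPM for PARP1 WT, 63.2 and 59.1 CPM for PARP1CKO, 251 and 155 CPM for PARP2 WT, and 263 and 264 CPM for PARP2CKO. It was thus lowest in the PARP1CKO libraries, while PARP2 WT replicate 2 lay below every other library with an undeleted Parp1. Parp2 stood at 39.1 and 40.8 CPM for PARP1 WT, 38.3 and 37.0 CPM for PARP1CKO, 48.2 and 48.3 CPM for PARP2 WT, and 25.7 and 25.6 CPM for PARP2CKO. The lowest Parp2 values were thus those of PARP2CKO, and the deleted gene was still counted in each line. On the log2 scale Parp1 differed by -1.75 in the PARP1 line and 0.37 in the PARP2 line, and Parp2 by -0.09 and -0.91. Parp2 also lay just below both WT libraries in the PARP1 line, and both genes differed in size between the lines.

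No gene passed an adjusted p-value of 0.05 for the shared effect in edgeR's quasi-likelihood test, in which the smallest adjusted p was 0.0941. The 5 genes at that value, 0.0379% of the genes tested, were Lyz2, Lyz1 and Egr1, which were lower in CKO, and Folr2 and Tfrc, which were higher. At an unadjusted p under 0.05 there were 1064 genes, 8.06% of those tested, of which 586 (4.44%) were higher and 478 (3.62%) lower in CKO. With library size alone as the scaling, which shifts the median of all genes to -0.0134 on the log2 scale, the split was 395 higher and 733 lower. With the same counts the likelihood-ratio test called 33 genes, 0.25% of those tested, with 18 higher and 15 lower. DESeq2 called 30, a quasi-likelihood fit with a mean for each of the 4 groups called 14 (0.106%), and limma-voom called 0. Thus whether any gene was called depended on the test. Effect sizes are given below, for some genes with the values of every library.

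Most of the differences were small. Of the 1064 genes, 948 differed by less than 0.5 on the log2 scale and 19 by more than 1, and the median size was 0.136. The fitted effects had the same sign in both lines for 1047 of them, which the additive fit favours, and 111 had an unadjusted p under 0.05 for a difference between the lines. Over all 13197 genes tested, the signs in the 2 lines were the same for 6853 (51.9%). In both lines separately, with 2 CKO libraries on one side of 2 WT libraries, 1107 genes (8.39%) did not overlap in the same direction and 873 (6.62%) did not overlap in opposite directions. Of the genes with the same direction, 567 (4.3%) were above WT and 540 (4.09%) below it. All 4 CKO libraries lay on one side of all 4 WT libraries for 364 genes (2.76%), 167 above and 197 below. Taken alone, the PARP1 line had 1486 genes (11.3%) and the PARP2 line 637 genes (4.83%) at an unadjusted p under 0.05. In both lines this was reached by 114 genes, of which 68 differed in the same direction, 37 higher and 31 lower, and 46 in opposite directions.

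**Figure D1:**
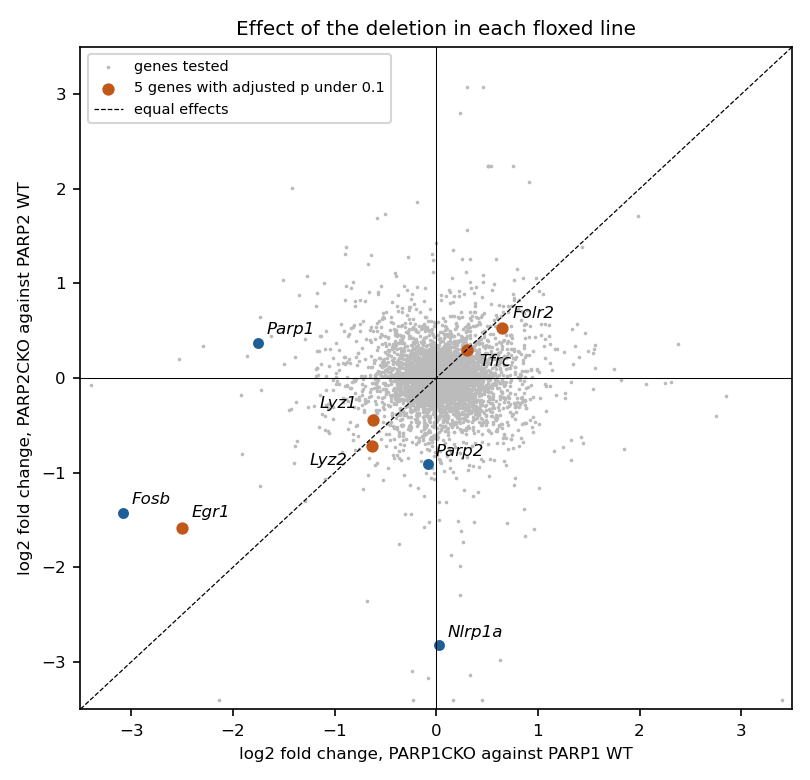
Log2 fold change of CKO against WT in the PARP1 line (horizontal axis) and in the PARP2 line (vertical axis) for the 13197 genes tested (grey, clipped at the edges). The 5 genes with an adjusted p under 0.1 (orange) lie on the same side of 0 in both lines, whereas Parp1, Parp2 and Nlrp1a (blue) lie near or beyond one axis and Fosb is low in both lines.

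Lyz2 was the gene with the smallest p-value. It was at 5712 and 6387 CPM for PARP1 WT against 3495 and 4334 CPM for PARP1CKO, and at 9725 and 10804 CPM for PARP2 WT against 6742 and 5747 CPM for PARP2CKO. Every CKO library lay below both WT libraries of its own line, while the PARP2CKO libraries lay within or above the range of PARP1 WT, so the lines differed in level as much as the genotypes did. The shared log2 fold change was -0.67 (standard error 0.0795), a CKO level of 0.627 of WT, and it was -0.63 in the PARP1 line and -0.72 in the PARP2 line (unadjusted p of the difference between lines 0.599). Its adjusted p was 0.0941 in the quasi-likelihood test, 0.0350 with a mean for each group and 3.63e-12 in the likelihood-ratio test, and over the alternatives it reached up to 0.999, without the line covariate. The log2 fold change lay between -0.75 and -0.62 over 18 alternatives in both lines together.

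Lyz1 followed it at a far lower level. Its values were 259 and 253 CPM for PARP1 WT, 150 and 184 CPM for PARP1CKO, 410 and 462 CPM for PARP2 WT, and 336 and 305 CPM for PARP2CKO, again with no overlap within a line. The shared log2 fold change was -0.53 (standard error 0.0701), with -0.62 in the PARP1 line and -0.45 in the PARP2 line. Lyz1 counts amounted to 4.54% and 3.96% of the Lyz2 total for PARP1 WT and 4.29% and 4.24% for PARP1CKO, and to 4.22% and 4.28% for PARP2 WT and 4.99% and 5.30% for PARP2CKO. The ratio was thus higher in both PARP2CKO libraries than in the other 6, although PARP2CKO replicate 1 exceeded PARP1 WT replicate 1 by less than the PARP1 WT libraries were apart. How far reads shared between these copies set the Lyz1 values was not tested.

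Marker lists of myeloid cells had smaller medians. Of the 20 monocyte and macrophage markers tested, 2 were higher and 2 lower at an unadjusted p under 0.05, together 20% against 8.06% of all genes, and the list's median was 0.04 (0.0242 without PARP2 WT replicate 1). The list's members summed to 6264 to 7067 CPM in WT and 6420 to 7410 CPM in CKO. Of 18 neutrophil markers tested, 0 were higher and 1 (Retnlg, a resistin-like secreted protein) was lower, or 5.56%. These neutrophil genes summed to 3579 to 4255 CPM in WT and 3193 to 3999 CPM in CKO, with a median of -0.10 on the log2 scale that was -0.16 without PARP1CKO replicate 2 and -0.0543 without PARP2CKO replicate 2, and every marker in the table but Stfa2 (at most 3 counts) had 14 counts or more in each library. The part of these shifts in the lysozyme values was not tested.

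Other genes around the lysozyme genes lay mostly closer to WT. Within 10 Mb of Lyz2 the table held 133 other genes, of which 77 were tested, and 2 were higher and 4 lower at an unadjusted p under 0.05, or 7.79% of them against 8.06% of all genes. Lyz1 was among the 4, beside Thap2 at -0.14, Llph at -0.10 and the pseudogene Gm5176 at -0.76, which had a mean of only 0.167 CPM. Lemd3 was higher at 0.12. Among the nearest genes tested, the log2 fold change was 0.05 (standard error 0.0380) for Yeats4, a chromatin reader, 0.03 (standard error 0.0357) for Frs2, a growth factor receptor adaptor, and 0.03 (standard error 0.0274) for Cpsf6, an RNA cleavage factor, while 9530003J23Rik, which lies between Yeats4 and Lyz2, did not pass the filter on low counts. The median of the 77 genes was 0.00877, which was -0.00176 without PARP1CKO replicate 2 and 0.02 without PARP2CKO replicate 1, and with library size alone it was -0.00699.

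**Figure D2:**
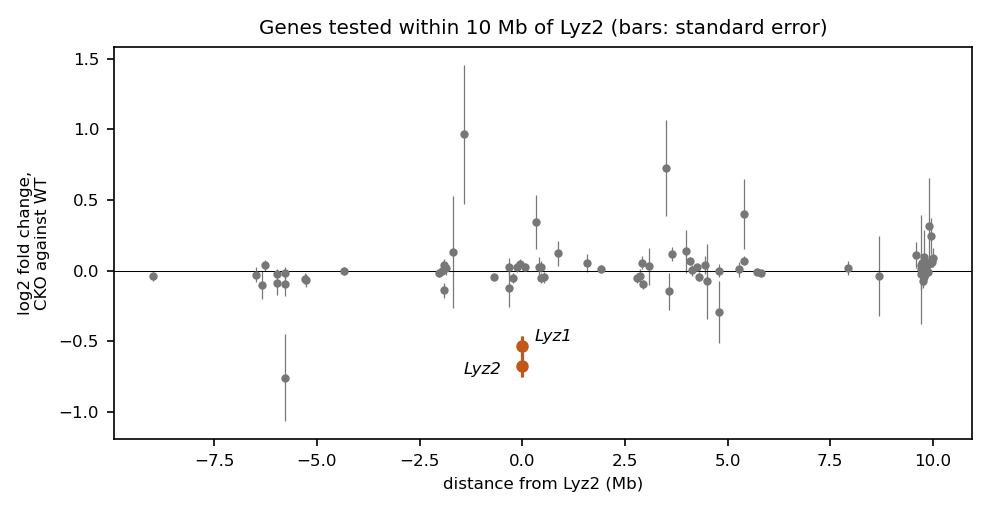
Log2 fold change of CKO against WT in the additive fit (vertical axis, bars are standard errors) for the genes tested within 10 Mb of Lyz2, by their distance from it in Mb. Lyz2 and Lyz1 (orange, -0.67 and -0.53) lie below the nearest genes tested, Yeats4, Frs2 and Cpsf6, at 0.05, 0.03 and 0.03.

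Egr1 and Fosb, transcription factors of the immediate-early response that cells switch on within minutes of a stimulus, differed by more than any gene described above. Egr1 stood at 72.5 and 51.7 CPM for PARP1 WT, 14.5 and 7.17 CPM for PARP1CKO, 41.0 and 79.1 CPM for PARP2 WT, and 17.6 and 22.6 CPM for PARP2CKO. All 4 CKO libraries lay below all 4 WT libraries, and the shared log2 fold change was -2.02 (standard error 0.283). In the PARP1 line it was -2.51 and in the PARP2 line -1.58, and in CPM the PARP2 WT libraries were farther apart than those of any other group. Fosb was at 6.82 and 6.45 CPM for PARP1 WT and 0.932 and 0.619 CPM for PARP1CKO, against 1.73 and 4.69 CPM for PARP2 WT and 1.39 and 0.953 CPM for PARP2CKO. Its shared difference was -2.22 on the log2 scale, with a standard error of 0.389 and an adjusted p of 0.249 in the quasi-likelihood test and 0.0488 with a mean for each group, and it differed between the lines at an unadjusted p of 0.0270.

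Of the 32 immediate-early genes tested, 10 were lower and 1 higher at an unadjusted p under 0.05, or 34.4% against 8.06% of all genes. None passed the adjusted threshold in the quasi-likelihood test. This list, like the iron, lysosomal and mitosis lists below, was written with earlier results of these data known. Such shares therefore describe the lists and are no test of them. The likelihood-ratio test, which called 0.25% of all genes, called 5 of the 32, Egr1, Fosb, Dusp1, Fos and Ier2. In the same direction in both lines, 7 of the 32 did not overlap below WT and 1 above it, against 4.09% and 4.3% of all genes. Fos, a partner of Jun in the AP-1 factor, was at 173 and 147 CPM for PARP1 WT and 69.7 and 47.1 CPM for PARP1CKO, but at 135 and 186 CPM for PARP2 WT and 129 and 126 CPM for PARP2CKO. Dusp1, a phosphatase that switches off MAP kinases, was at 61.0 and 54.2 CPM for PARP1 WT and 28.1 and 21.8 CPM for PARP1CKO, against 45.9 and 57.9 CPM for PARP2 WT and 44.2 and 40.1 CPM for PARP2CKO. Both genes lay below WT in each line, and both were farther below it in the PARP1 line, at -1.45 against -0.33 for Fos (unadjusted p of the difference 0.0020) and -1.20 against -0.30 for Dusp1 (0.00104).

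Rgs1, which ends signals of G protein-coupled receptors, had the same form, with -1.08 in the PARP1 line and -0.13 in the PARP2 line. Ier2 was one of the immediate-early genes with the larger difference in the PARP2 line, at -0.51 against -0.34, and Btg2, an antiproliferative gene, had -0.46 against -0.24. Zfp36, which destabilises cytokine mRNA, was lower by a log2 fold change of -0.25 with all 4 CKO libraries below all 4 WT libraries. Jund was the 1 member on the higher side at an unadjusted p under 0.05, at 0.18 (0.09 to 0.22 on leaving out 1 library). It had 0.32 in the PARP1 line and 0.05 in the PARP2 line. With library size alone 0 members were higher at that p. Of the other most abundant members, Klf6 was among the 10 lower genes at -0.12, while Atf3 and Jun had -0.06 and -0.04 and did not reach that p. The median of the list was -0.09 against 0.00203 over all genes tested, with -0.17 in the PARP1 line and -0.05 in the PARP2 line. On the log2 scale of CPM + 0.5 the median member of PARP2CKO replicate 2, at -0.0224 from the WT mean, lay between the PARP2 WT libraries at -0.0502 and 0.0502, so the genotypes overlapped in that line.

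**Figure D3:**
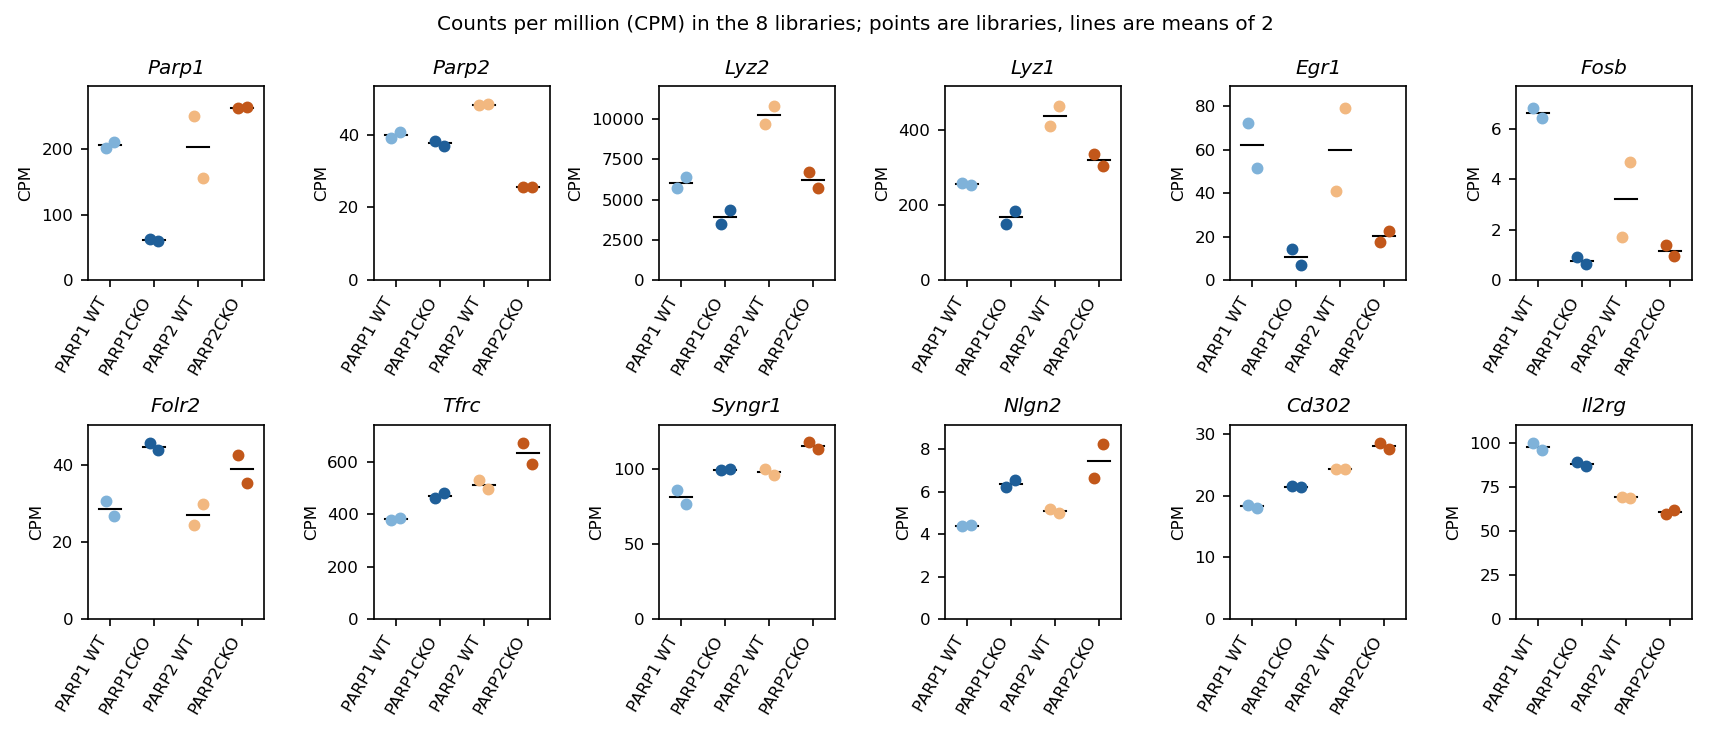
CPM of 12 genes in each of the 8 libraries (points, 2 per group), with the mean of each group as a line and the vertical axis starting at 0 in every panel. Parp1 and Parp2 are low in 1 CKO group each, whereas Lyz2, Lyz1, Egr1, Fosb and Il2rg lie below their line's WT libraries in both CKO groups and Folr2, Tfrc, Syngr1, Nlgn2 and Cd302 above them.

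Folr2, a folate receptor found on resident macrophages, was the higher gene with the smallest p-value. It was at 30.6 and 26.8 CPM for PARP1 WT and 45.6 and 43.8 CPM for PARP1CKO, and at 24.4 and 29.8 CPM for PARP2 WT and 42.7 and 35.2 CPM for PARP2CKO. The 4 CKO libraries lay above the 4 WT libraries, and the log2 fold change was 0.58 (standard error 0.0793), with 0.64 and 0.53 in the PARP1 and PARP2 lines. Other genes of the resident macrophage list were closer to WT. Of its 17 members tested 4 were higher and 0 lower at an unadjusted p under 0.05, or 23.5% against 8.06% of all genes, the others being Mertk at 0.24, Apoe at 0.19 and Igf1 at 0.17. Mertk, a receptor for dying cells, stood at 35.0 and 37.9 CPM for PARP1 WT, 40.1 and 43.2 CPM for PARP1CKO, 55.3 and 68.4 CPM for PARP2 WT, and 77.7 and 73.0 CPM for PARP2CKO. The members summed to 5084 to 7232 CPM in WT and 5618 to 7017 CPM in CKO, and the list's median was 0.05, which was -0.04 without PARP1CKO replicate 2 and 0.11 without PARP2 WT replicate 2. Emr1, which encodes the macrophage antigen F4/80, lay between 495 and 534 CPM in WT and between 556 and 630 CPM in CKO, a log2 fold change of 0.18, while Ly6c2, a monocyte antigen, had -0.18.

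Tfrc encodes the transferrin receptor, through which cells take up iron. It stood at 379 and 386 CPM for PARP1 WT, 462 and 483 CPM for PARP1CKO, 530 and 498 CPM for PARP2 WT, and 672 and 595 CPM for PARP2CKO. Both CKO groups lay above their own WT libraries by nearly the same log2 fold change, 0.31 and 0.30, for a shared value of 0.30 (standard error 0.0426, 1.23-fold). As with Lyz2, the PARP2 line had the higher level in either genotype.

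The iron list had 7 of 19 members higher and 0 lower at an unadjusted p under 0.05, or 36.8% against 8.06% of all genes. Without overlap in both lines, 7 lay above WT, against 4.3% of all genes. The signs of the shared effect were mixed, with 11 members positive and 8 negative. In both lines 8 members were positive and 1 was negative. Ftl1 and Fth1, the chains of the iron store ferritin, were among the most abundant transcripts. Fth1 was at 11494 and 11718 CPM for PARP1 WT, 13230 and 12199 CPM for PARP1CKO, 12291 and 11659 CPM for PARP2 WT, and 13306 and 13204 CPM for PARP2CKO. Its log2 fold change was 0.14 (standard error 0.0408), and that of Ftl1 was 0.16 (standard error 0.0489). Slc11a1 and Slc11a2, which carry iron out of the phagosome and the endosome, had 0.12 and 0.08, and Hfe and Slc25a28, a mitochondrial iron carrier, had 0.10 and 0.09. Hmox1, the heme-degrading enzyme, had -0.07 in the PARP1 line and 0.23 in the PARP2 line. Slc40a1, the iron exporter ferroportin, had a log2 fold change of -0.01. The median of the list was 0.08 (0.0443 without PARP1 WT replicate 1), and with library size alone 4 members had an unadjusted p under 0.05.

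Lysosomal genes lay on the higher side too, by small amounts. Of 20 members 17 had a positive log2 fold change and 16 were positive in both lines, as were 3520 of all 13197 genes. At an unadjusted p under 0.05, 7 were higher and 0 lower, or 35% against 8.06% of all genes. Ctsb, the protease cathepsin B, stood at 13402 and 13963 CPM for PARP1 WT, 15372 and 14347 CPM for PARP1CKO, 14993 and 14451 CPM for PARP2 WT, and 16833 and 16021 CPM for PARP2CKO. Ctsd stood at 14091 and 14041 CPM for PARP1 WT, 15127 and 15140 CPM for PARP1CKO, 15770 and 15159 CPM for PARP2 WT, and 17738 and 16060 CPM for PARP2CKO. Neither gene's genotypes overlapped within a line, and the log2 fold changes were 0.14 (standard error 0.0419) and 0.12 (standard error 0.0425). Ctss, Atp6v0c, a subunit of the proton pump, and Gaa, which breaks down glycogen, had 0.16, 0.14 and 0.13. Lamp1, the main membrane protein of lysosomes, had 0.07 and lay above all WT libraries in all 4 CKO libraries. The list's median was 0.07 in each line alike, and with library size alone it was 0.06 and 4 members had an unadjusted p under 0.05.

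Genes of mitosis lay on the lower side. Of 24 members 22 had a negative shared log2 fold change and 17 were negative in both lines, against 6443 and 3333 of all 13197 genes. At an unadjusted p under 0.05, 0 were higher and 11 lower, or 45.8% against 8.06% of all genes, and 11 lay below WT without overlap in both lines, against 4.09% of all genes. The sizes were small, from -0.13 to 0.02. With library size alone as the scaling, 16 members were lower and 0 higher at an unadjusted p under 0.05. Nusap1, a spindle protein, was at 71.0 and 65.2 CPM for PARP1 WT, 61.8 and 61.2 CPM for PARP1CKO, 66.1 and 66.5 CPM for PARP2 WT, and 60.4 and 62.1 CPM for PARP2CKO, so that all 4 CKO libraries lay below all 4 WT libraries. Its log2 fold change was -0.13 (standard error 0.0328).

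Ccna2, the cyclin of S phase and G2, had -0.11, Tpx2, which activates Aurora A, had -0.11, and Kif23, whose promoter is shown above, had -0.10. Mki67, the most abundant member and a common marker of dividing cells, was at 765 and 826 CPM for PARP1 WT, 755 and 760 CPM for PARP1CKO, 730 and 741 CPM for PARP2 WT, and 696 and 704 CPM for PARP2CKO. It did not overlap within a line and differed by -0.07 on the log2 scale (standard error 0.0323, unadjusted p = 0.0537 in the quasi-likelihood test). Sgol1, which protects the cohesion of sister chromatids and is no member of the list, had -0.21 and was called by the likelihood-ratio test (adjusted p = 0.0184). The list's median was -0.08, and it was -0.07 in each line. The replication and G1/S list had 2 of 25 members (8%) at an unadjusted p under 0.05, against 8.06% of all genes, with 1 higher (Cdt1, a licensing factor, at 0.19) and 1 lower (Rrm1, a subunit of ribonucleotide reductase, at -0.08), and its median was -0.00196 (-0.0231 without PARP2CKO replicate 1 and 0.00609 without PARP2CKO replicate 2).

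**Figure D4:**
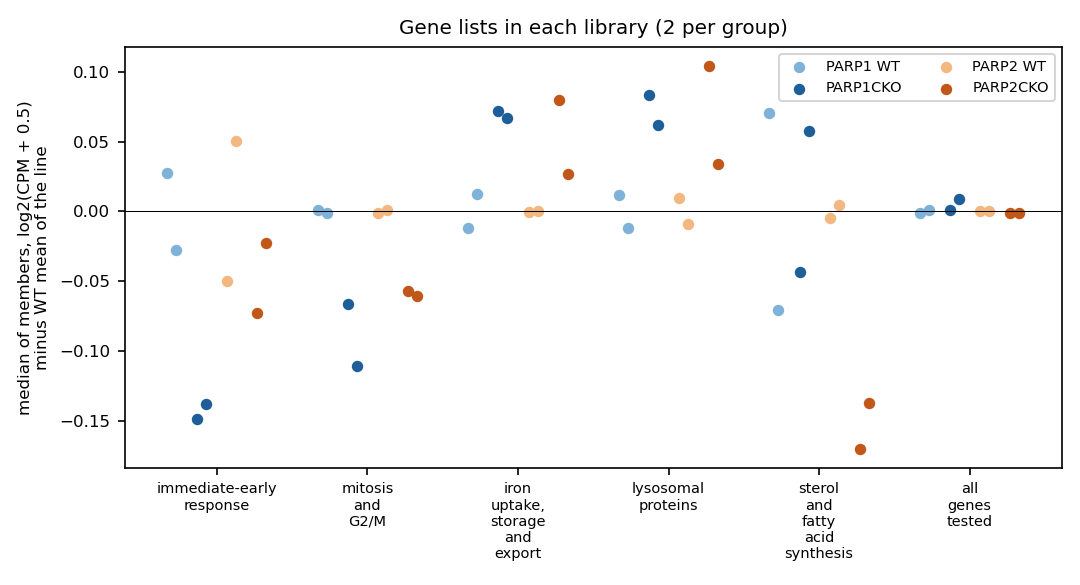
Median over the members of 5 gene lists and over all genes tested, in each library, of log2(CPM + 0.5) minus the mean of the WT libraries of the same line (vertical axis). The 2 WT points of a line mirror each other by construction. Mitosis genes lie between -0.111 and -0.0568 and lysosomal genes between 0.0336 and 0.104 in the 4 CKO libraries, and all genes tested lie within 0.00903 of 0.

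The median of the sterol and fatty acid list lay on the lower side only in the PARP2 line, and the difference between the lines was not tested for the list. At an unadjusted p under 0.05, 6 of 25 were lower and 0 higher for the shared effect, or 24% against 8.06% of all genes. Cyp51 had -0.17, and Insig1, Idi1 and Nsdhl had -0.14 each, all of them genes of cholesterol synthesis or its control. In the PARP1 and PARP2 lines Cyp51 had -0.16 and -0.17, Idi1 -0.11 and -0.18, Insig1 -0.08 and -0.21, and Nsdhl -0.05 and -0.22. The median of the list was -0.08 (-0.134 without PARP1 WT replicate 2), with 0.00466 in the PARP1 line and -0.15 in the PARP2 line, and 12 members were negative in both. The type I interferon genes had fitted medians of opposite sign, 0.54 in the PARP1 line and -0.30 in the PARP2 line. In the PARP1 line this rested on PARP1CKO replicate 2, in which the median member was 0.814 above the WT mean on the log2 scale of CPM + 0.5, while PARP1CKO replicate 1, at 0.0221, lay between the WT libraries at -0.28 and 0.28. None of the 20 was positive or negative in both lines, and 0 had an unadjusted p under 0.05 for the shared effect in edgeR's quasi-likelihood test, and their shared median of 0.10 was -0.142 without PARP1CKO replicate 2.

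**Figure D5:**
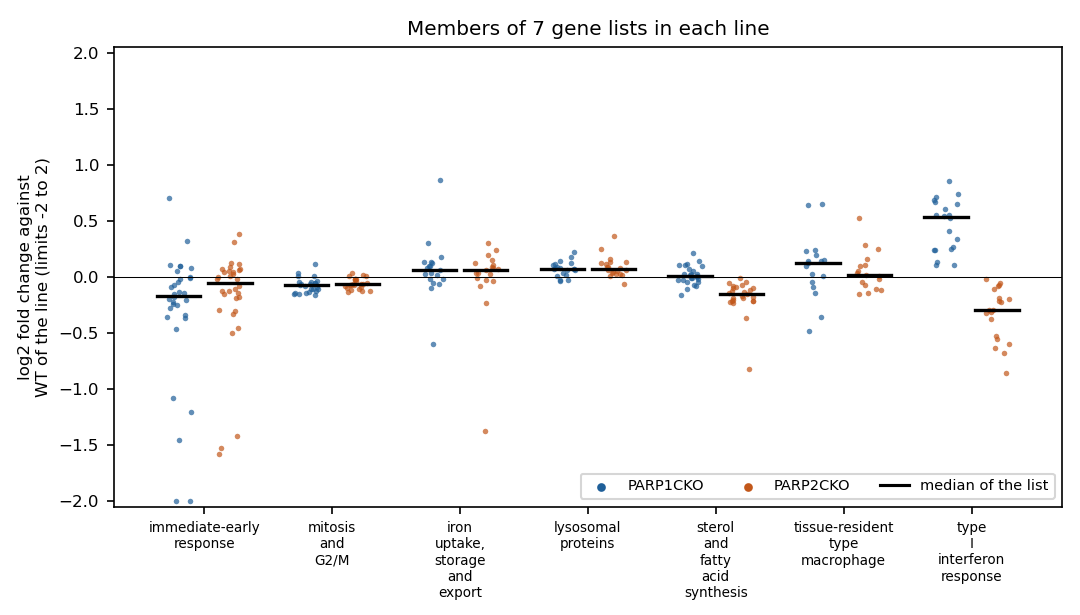
Log2 fold change against the WT libraries of the same line for every tested member of 7 gene lists (points, clipped at -2 and 2), in PARP1CKO (blue) and PARP2CKO (orange), with the median of each list as a bar. The medians of the mitosis, iron and lysosomal lists are alike in both lines, those of the sterol list differ, and those of the interferon list have opposite signs.

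Of the other genes among the 10 with the smallest p-values, Syngr1, Nlgn2 and Cd302 were higher and Il2rg was lower in CKO. Nlgn2, a cell adhesion protein best known from synapses, was at 4.37 and 4.43 CPM for PARP1 WT, 6.21 and 6.53 CPM for PARP1CKO, 5.17 and 4.998 CPM for PARP2 WT, and 6.62 and 8.26 CPM for PARP2CKO. The shared difference was 0.54 on the log2 scale, with a standard error of 0.0824 and an adjusted p of 0.135 in edgeR's quasi-likelihood test, all 4 CKO libraries being above all 4 WT libraries. Syngr1, a synaptic vesicle protein, had 0.26 (standard error 0.0392) with 0.29 and 0.24 in the lines. Cd302, a C-type lectin of phagocytes, had 0.22 (standard error 0.0356). Il2rg, the common chain of several interleukin receptors, was at 100.2 and 96.1 CPM for PARP1 WT and 89.4 and 87.0 CPM for PARP1CKO, and at 69.5 and 69.1 CPM for PARP2 WT and 59.9 and 62.0 CPM for PARP2CKO. The difference was -0.17 on the log2 scale (standard error 0.0287).

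Ifi202b, an interferon-inducible DNA sensor, also ranked among these 10 but was not shared. It was at 19.9 and 19.8 CPM for PARP2 WT, at 0.288 CPM for PARP1CKO replicate 2, and at 0 in the other 5 libraries. The PARP2 WT libraries alone thus held nearly all of its counts, and no measured fold change exists for the PARP1 line, whose WT libraries had no counts.

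Among the genes that a fit with a mean for each group called, several differed in size between the lines. Abca9, a lipid transporter, had 0.80 in the PARP1 line and 0.28 in the PARP2 line, Siglec1, a sialic acid receptor of macrophages, 0.86 and 0.19, and Pdlim4, a cytoskeletal protein, 0.58 and 0.14. Slamf7, an immune cell receptor, was the larger in the PARP2 line with 0.57 against 0.19. Each of these 4 genes lay above all WT libraries in all 4 CKO libraries, and the unadjusted p of the difference between lines lay between 0.000117 and 0.0019 in the quasi-likelihood test. Padi2, which converts arginine to citrulline, was lower in both lines, at -0.51 and -0.07. Nlrp1a, a sensor of the inflammasome, was also called, with -2.83 in the PARP2 line and 0.03 in the PARP1 line, as was its neighbour, the pseudogene Nlrp1c-ps.

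Further lists are given by their members at an unadjusted p under 0.05, which 8.06% of all genes reached. In the osteoclast list 2 of 18 (11.1%) were higher and 0 lower, Ocstamp, a fusion protein with a mean of 0.402 CPM, and Tcirg1, a proton pump subunit, at 0.12. In the CC chemokine list 3 of 12 (25%) were lower, Ccl9, Ccl4 and Ccl3, with -1.01, -1.05 and -0.99 in the PARP2 line against -0.10, -0.05 and 0.07 in the PARP1 line. The DNA repair list had 0 of 31 higher and 1 (3.23%) lower (Rad50, at -0.06), the p53 target list 1 of 22 (4.55%) lower (Btg2), and the ADP-ribosyl transferase list, beside Parp2, Tnks higher at 0.08 and Parp8 lower at -0.13. The beta-catenin list had 0 of 13 members at an unadjusted p under 0.05 in the quasi-likelihood test. In lipid uptake 2 of 17 (11.8%) were higher, Apoe and Fabp5, a fatty acid carrier, at 0.26. Markers of basophils and mast cells had 0 of 10 higher and 2 (20%) lower, Cpa3 at -0.40 and Prss34 at -0.32. These markers summed to 64.23 and 62.76 CPM for PARP1 WT and 59.79 and 66.65 CPM for PARP1CKO. In the PARP2 line the sums were 41.43 and 35.96 CPM in WT and 30.44 and 30.46 CPM in CKO. Their median was -0.03 in the PARP1 line and -0.32 in the PARP2 line. Mcpt4 was at 0 in all libraries. The B cell list had 2 of 12 (16.7%) higher, Blnk and Cd22, at 0.16 and 0.33. It summed to 127.6 to 134.1 CPM in WT and 138.9 to 149.7 CPM in CKO. Its median was 0.27 in the PARP1 line and -0.09 in the PARP2 line. The shared median of 0.15 was -0.0585 without PARP1CKO replicate 2 and 0.256 without PARP2CKO replicate 1. In the T and NK cell list 1 of 7 (14.3%) was higher, Cd2, an adhesion receptor with a mean of 0.287 CPM, at 1.01. Leaving out 1 library gave Cd2 values of 0.60 to 1.34.

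Among the other inflammatory lists, the CXC chemokines had 1 of 11 (9.09%) lower, Cxcl2, which attracts neutrophils, at -0.79. The chemokine receptors had 1 of 10 (10%) lower, Ccr2, the receptor of monocyte chemokines, at -0.20. Ccr2 had -0.34 in the PARP1 line and -0.07 in the PARP2 line, and -0.26 to -0.11 on leaving out 1 library. The medians of the receptor list in these lines were -0.12 and 0.05. With library size alone 2 receptors were lower. The inflammatory cytokines had 1 of 14 (7.14%) lower, Il1b at -0.38 (-0.53 to -0.24 on leaving out 1 library), and 2 lower with library size alone. Of the NF-kB subunits and inhibitors 2 of 14 (14.3%) were higher, the inhibitors Nfkbia and Nfkbib at 0.09 and 0.16. Nfkbib had 0.28 in the PARP1 line and 0.04 in the PARP2 line, and 0.10 to 0.20 on leaving out 1 library. With library size alone 1 member was higher. The dendritic cell list had 2 of 12 (16.7%), with the lectins Clec10a higher at 0.40 and Cd209a lower at -0.52. The haematopoietic progenitor list had 3 of 14 members (21.4%) at that p. Cebpa, a factor of myeloid fate, was higher at 0.20, and the surface proteins Cd34 and Spn were lower at -0.32 and -0.14. On leaving out 1 library Cd34 had -0.43 to -0.19 and Spn -0.18 to -0.09. In the ATF4 stress response list 1 of 21 (4.76%) was lower, Atf4 itself at -0.08. The median of that list was 0.11 in the PARP1 line and -0.28 in the PARP2 line. Only 6 of the 21 had the same sign in both lines. The shared median of -0.06 was -0.163 without PARP1CKO replicate 2 and 0.0322 without PARP2 WT replicate 2. In glycolysis and the pentose phosphate pathway 2 of 24 (8.33%) passed that p. They were Hk2, a hexokinase, at 0.09 and Pdk1, which inhibits pyruvate dehydrogenase, at -0.46. Pdk1 had -0.61 to -0.26 on leaving out 1 library, and with library size alone 0 members were higher and 1 was lower. The cytosolic ribosomal proteins had 3 of 83 (3.61%) higher and 0 lower, whereas with library size alone 2 were higher and 6 lower. The MHC class II, CHD remodeller, stromal and endothelial and Y-linked lists had 0 of 11, 10, 11 and 4 members at an unadjusted p under 0.05 in the quasi-likelihood test. The Y-linked genes summed to 216.4 to 235.2 CPM in WT and 155.9 to 231.1 CPM in CKO. PARP1CKO replicate 2, at 155.9 CPM, stood apart from PARP1CKO replicate 1 at 216.3 CPM, and the cause was not tested.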

How the data were processed

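Total RNA of 8 libraries was measured. The authors deposited raw counts per gene, made from reads checked with FastQC 0.11.2, mapped to mm10 with TopHat2 2.0.12, with duplicates marked by Picard 1.127, and counted with featureCounts of Subread, and they named edgeR for their own tests. The annotation, the use of strand and the treatment of duplicates in counting are not given in the sources used here. No other per-sample column was present. No gene name was blank.

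Counts were filtered with filterByExpr and scaled by TMM factors (0.965 to 1.03) in edgeR 4.0.16 under R 4.3.3. CPM are these counts scaled to a common total. The shared effect was tested over all 13197 genes with edgeR's quasi-likelihood test, line as covariate, Benjamini-Hochberg adjustment and a threshold of 0.05. Effects in each line and their difference came from a fit with a mean for each group. Standard errors are those implied by the test statistic. An exact permutation within lines cannot give a two-sided p under 0.0556. Replicates differed beyond sampling noise, with 8.69 to 13.1 in chi-square per gene, so none was a repeat deposit. The genes named are Parp1, Parp2, Lyz1, Lyz2, called genes and, since fewer than 10 were called, the 10 with the smallest p. Uncalled list examples were the most abundant members, and all others were named after their values were seen. The comparison and the gene lists were chosen with earlier results of these data known. Positions (GENCODE M21, RefSeq) were matched by symbol or synonym for 13134 of the genes tested, and promoters came from RefSeq, for which 6 motifs were searched. The script was tested on simulated data. Alternatives were DESeq2 1.42.0, limma 3.58.1 (voom), the likelihood-ratio test, other scalings, filters and thresholds, other designs, a replicate block and leaving out each library. Figures were drawn with matplotlib 3.10.9.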

Additional observations from a re-analysis of the deposited data

Results flagged for a closer look

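Among the 4 CKO libraries, Ifi202b was at 0 in 3 and at 0.288 CPM in PARP1CKO replicate 2, so the gap of that library to the others took the whole range of the group (ratio 1). With 3 libraries at 0, any count in the other one gives this ratio. The effects of the deletion differed between the lines for Parp1 (unadjusted p of the difference 1.26e-05 in edgeR's quasi-likelihood test, log2 fold changes of -1.75 in PARP1CKO and 0.37 in PARP2CKO), for Parp2 (4.8e-07, -0.09 and -0.91) and for Ifi202b (0.000235), whose counts lay almost only in PARP2 WT and whose p rests on a PARP1 WT group at 0 counts.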

How the results depend on the processing

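The number of genes called for the shared effect was 0 with limma-voom, DESeq2 size factors, library size alone, a minimum of 1 CPM in 4 libraries, no line covariate and a threshold of 0.01, as in the quasi-likelihood test, which had 1064 genes at an unadjusted p under 0.05. It was 33 with the likelihood-ratio test (18 higher, 15 lower, 33 with the same sign in both lines), 30 with DESeq2 (21 higher, 9 lower, 30 with the same sign), 14 with a mean for each group (5 higher, 9 lower, 12 with the same sign), 13 without a filter on low counts (7 higher, 6 lower, 12 with the same sign) and 5 at a threshold of 0.1 (2 higher, 3 lower, 5 with the same sign). The PARP1 line alone gave 14 (4 higher, 10 lower, 8 with the same sign) and the PARP2 line alone 7 (1 higher, 6 lower, 3 with the same sign). Leaving out each library gave 0 to 7 calls (0 to 2 higher, 0 to 5 lower, 0 to 5 with the same sign), with 7 without PARP1CKO replicate 2, 2 without PARP2 WT replicate 1 and 0 on leaving out each of the other 6. It gave 700 to 1300 genes at an unadjusted p under 0.05, with 700 without PARP1CKO replicate 1. That range and the list medians without a library were chosen after seeing the data. In the PARP1 line alone the log2 fold change was positive for Nlrp1a (0.0266), Nlrp1c-ps (0.16) and Ccl3 (0.0749), and for Ifi202b, whose fitted value of 5.80 stands over a WT group at 0 counts and is no measured fold, and in the PARP2 line alone for Parp1 (0.37). The cause of these differences was not tested. Replicate numbers share only a number, with correlations of deviations of -0.133 in the PARP1 line and 0.147 in the PARP2 line, and the fit with a replicate block called 0 genes. As no gene was called, the test for differences between lines among called genes had nothing to count.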
